A study of Mus musculus with 94 samples.

Results

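Haematopoietic stem cells were divided by their own Cd34 transcript, and the cells that carried it were compared with the cells that did not. Of 94 single cells, 58 were grouped by Cd34 at 5 TPM or more and are called Cd34-expressing here. In 19 cells Cd34 was listed at exactly 0, and these are called Cd34-silent. The remaining 17 cells, with Cd34 above 0 and under 5 TPM, were left out of the comparison and are described beside it. TPM is the level of a transcript scaled to its length and to the total of its cell. Cd34 chose the members, so its own difference between the groups is a description and not a result.

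The study compared Ski-KO with Ski-WT stem cells of the C57BL/6 strain, Ski being a co-repressor of Smad signalling downstream of TGF-beta. The cells were derived from fetal liver, had been transplanted for 6 months, and were taken from the bone marrow of the recipients by sorting for Cd45.2+ Lineage- cells that were Cd48- and Cd150+ as well as c-Kit+ and Sca-1+, so all cells of both Cd34 groups share the transplantation and the gate. Single cells were captured with the Fluidigm C1 system, and each deposited sample is 1 cell. The labels give 46 Ski-KO cells under 2 numerical prefixes, 27 under 051716 and 19 under 051816, and 48 Ski-WT cells under 1 prefix, 061016. Ski was at 5 TPM or more in 3 of the 46 cells labelled Ski-KO, with a highest value of 227.9 TPM, and in 6 of the 48 labelled Ski-WT, with a highest value of 335.5 TPM. Those 3 cells go against their label, and the labels do not tell which part of Ski was removed, so Ski-KO and Ski-WT are used below as label names. The labels also do not say what a prefix stands for, which animals the cells came from, or how the Ski-KO allele was made. Genotype and prefix cannot be told apart where a difference is between Ski-WT and Ski-KO.

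Cd34 is a heavily glycosylated sialomucin of the cell surface that can present ligands for selectins. In adult mice the long-term repopulating stem cells carry little or no Cd34 on their surface, whereas short-term stem cells and multipotent progenitors carry it, and fetal stem cells carry it as well. Cd34 is also found on endothelial cells. The gate used here did not include Cd34, so both kinds of cell could enter it.

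Cd34 was spread from 0 to the highest levels in each prefix, as the plot of Cd34 in every cell shows. In prefix 051716, 18 of 27 cells were expressing (66.7%, exact Clopper-Pearson 95% interval 46% to 83.5%), 5 were between and 4 were silent. In prefix 051816, 10 of 19 were expressing (52.6%, 28.9% to 75.6%), 4 were between and 5 were silent. In the Ski-WT prefix 061016, 30 of 48 were expressing (62.5%, 47.4% to 76.0%), 8 were between and 10 were silent. The intervals cover counting error only and overlap widely. The share of expressing cells in Ski-KO, 28 of 46 (60.9%, 45.4% to 74.9%), lay close to that in Ski-WT.

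The prefixes differed more in the level of Cd34 among expressing cells than in their share. The lowest, median and highest levels were 10.9, 403.2 and 2789 TPM in prefix 051716. They were 6.14, 42.4 and 432.5 TPM in prefix 051816, and 5, 200.4 and 1835 TPM in Ski-WT. The Ski-KO prefixes thus had the highest and the lowest median, with Ski-WT between them. For this reason every difference of log2 means below was taken within a prefix. Counts of cells at 5 TPM, means of a whole group with their ratios, and sums of markers pool the prefixes unless a prefix is named. The cells just inside the limit had 5, 5.35, 6.14 and 6.22 TPM, and those just outside had 3.55, 3.03, 1.92 and 1.55 TPM. Of the 17 cells between the groups, the median was 0.45 TPM, so most of them sat nearer to 0 than to the limit. Cd34 listed at 0 does not show that a cell had none of the transcript, since these TPM values keep no read depth.

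**Figure D1:**
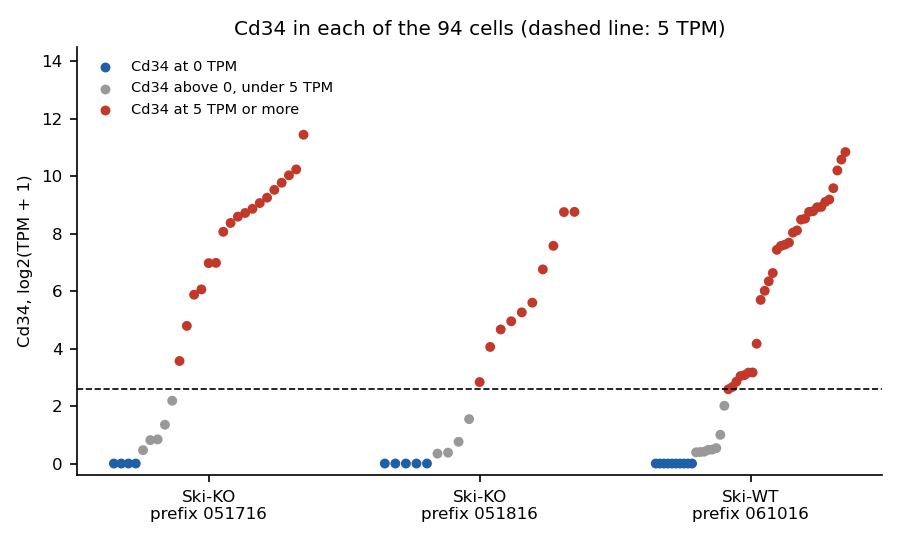
Each point is a cell, placed by its Cd34 level as log2(TPM + 1) within its label prefix and coloured by Cd34 group, and the dashed line marks 5 TPM. The silent cells number 4, 5 and 10 in the 3 prefixes, and the expressing cells of prefix 051816 end at 432.5 TPM, below the highest cells of the other prefixes.

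All differences are means over expressing cells minus means over silent cells of log2(TPM + 1), taken in each prefix and then averaged over prefixes with weights set by the numbers of cells. Since cells of a genotype are not replicate animals, the differences were not tested and are given without p-values. A gene was counted where all 3 prefixes differed in the same direction by at least 1. The genes above 0 in 25% or more of the 77 compared cells numbered 5467. Of these, 105 were higher in expressing cells by this rule (1.92% of genes tested) and 63 were lower (1.15%). Since 58 of the 77 cells were expressing, the filter favoured genes found in that group. A gene found only in the 19 silent cells could not pass it. With the number of detected genes in each cell as a covariate, the split was 86 higher and 87 lower. Without a limit on size, 873 genes (16%) were higher in all prefixes and 557 (10.2%) were lower in all prefixes. The number of genes that would agree over 3 prefixes without any link to Cd34 is not given here. None of these counts therefore shows that the prefixes agreed more often than unrelated differences would. Within a single prefix, differences of at least 1 were common, at 51.4% of genes in 051716, 48.5% in 051816 and 33% in 061016, where the silent groups held 4, 5 and 10 cells.

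The number of genes found in a cell moved with the Cd34 group in some prefixes. The median number of genes above 0 was 3390.5 in expressing and 3017 in silent cells of prefix 051716, 3588.5 and 3679 in prefix 051816, and 3762 and 3517.5 in Ski-WT. The median difference over all genes tested was 0.44, -0.08 and 0.07 in the same order, and 0.07 after weighting. The gap in prefix 051716 therefore lies beside each of its differences below, and its part in them was not tested beyond the covariate alternative.

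Serpinb1a, an intracellular inhibitor of neutrophil serine proteases, had the largest consistent difference of all genes tested. In the silent cells of prefix 051716 it was at 0, 0, 0.85 and 3.12 TPM, against a lowest, median and highest value of 0, 57.9 and 1217 TPM in the 18 expressing cells. In prefix 051816 the silent cells had 0, 0, 0.35, 1 and 55.6 TPM, and the 10 expressing cells ran from 0 through a median of 260.7 to 1510 TPM. In Ski-WT, 8 of the 10 silent cells were at 0 and the others at 2.05 and 199.7 TPM, and the 30 expressing cells ran from 0 through 72.5 to 1445 TPM. High Serpinb1a was thus rare in silent cells, while low Serpinb1a occurred in both groups, so the groups overlapped at the bottom. It reached 5 TPM in 38 of 58 expressing cells (65.5%, 51.9% to 77.5%), in 5 of 17 cells between (29.4%, 10.3% to 56.0%) and in 2 of 19 silent cells (10.5%, 1.30% to 33.1%). These intervals cover counting error only, over cells pooled from the prefixes that are not replicates. Serpinb1a was also selected on this contrast, so the intervals do not test it. The mean level was 344.4 TPM in expressing and 13.8 TPM in silent cells, a ratio of 24.9. On the log2 scale the means were 5.37 ± 4.13 (SD, n = 58 cells) and 1.02 ± 2.12 (SD, n = 19 cells), and the differences within prefixes were 4.85, 4.95 and 3.98, with a weighted value of 4.41.

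Ptk2b, a cytoplasmic tyrosine kinase related to focal adhesion kinase, followed at 3.11. Its silent cells held 0, 0, 0 and 0.22 TPM in prefix 051716 and 0, 0, 0, 0.48 and 30.8 TPM in prefix 051816, and in Ski-WT they had a median of 0 and a highest value of 140.5 TPM. The expressing cells had medians of 4.59, 22.8 and 25.4 TPM and highest values of 715.0, 714.3 and 345.8 TPM in the same order. As with Serpinb1a, cells at 0 occurred in both groups, and cells at 5 TPM or more made up 32 of 58 expressing but 2 of 19 silent cells. Ptk2b was at 5 TPM or more in 4 of the 17 cells between.

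Gimap1, a small GTPase of a family known from lymphocyte survival, had a weighted difference of 2.95. In prefix 051816 all 10 expressing cells were above 0, from 3.14 to 1680 TPM with a median of 51.7 TPM, while the 5 silent cells had 0, 0, 0, 1.11 and 369.9 TPM. A single silent cell there exceeded most expressing ones, so the groups overlapped. In prefix 051716 the silent cells had 0, 0, 1.20 and 4.40 TPM against an expressing median of 1.39 TPM and a highest value of 806.7 TPM. Gimap1 reached 5 TPM in 36 of 58 expressing, 8 of 17 between and 4 of 19 silent cells.

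**Figure D2:**
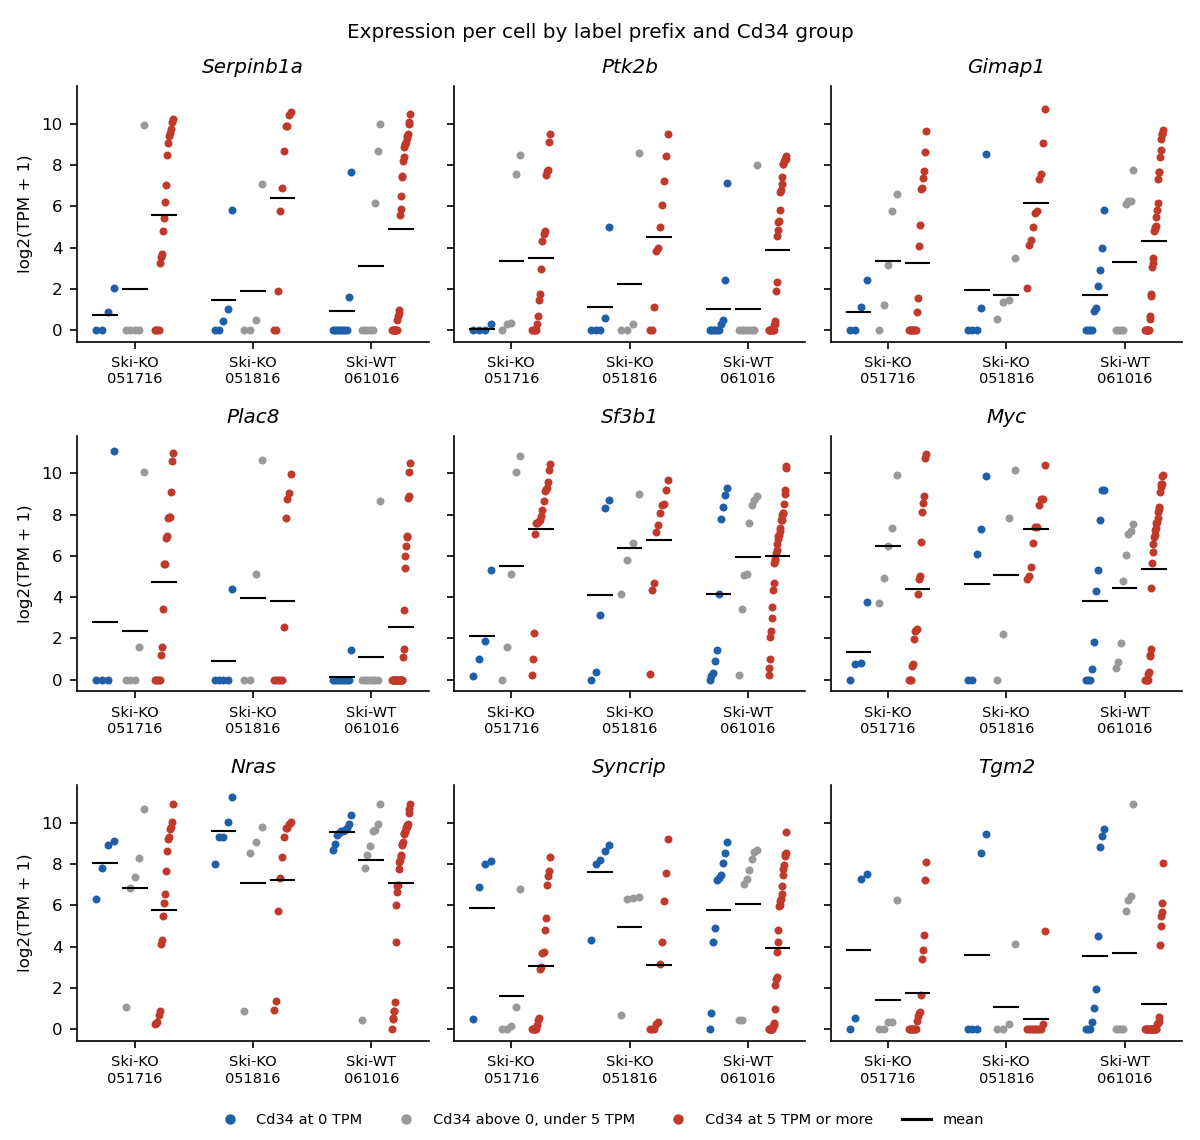
Points are cells, placed vertically by log2(TPM + 1), for 9 genes split by label prefix and by Cd34 group, and bars are group means. Serpinb1a and Ptk2b reach 5 TPM in 2 of 19 silent cells each, against 5 and 4 of 17 between cells and 38 and 32 of 58 expressing cells, whereas Nras is at 79.7 TPM or more in each of the 19 cells with Cd34 at 0.

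Plac8, Nbr1 and Wee1 were also among the 12 genes with the highest consistent differences. They were at 0 in 16, 16 and 15 of the 19 silent cells and passed the filter mainly through the expressing cells. Plac8, a small cysteine-rich protein of haematopoietic progenitors and granulocytes, differed by 2.43 and reached 5 TPM in 25 of 58 expressing and 2 of 19 silent cells. Its silent cells were 0, 0, 0 and 2187 TPM in prefix 051716, 0, 0, 0, 0 and 20 TPM in prefix 051816, and in Ski-WT none exceeded 1.70 TPM. The cell at 2187 TPM was higher than any expressing cell of its prefix, and with it the ratio of mean TPM was only 1.68. Nbr1, an autophagy cargo receptor, differed by 2.30 and reached 5 TPM in 19 of 58 expressing cells but in 0 of 19 silent cells, whose highest value was 3.93 TPM. Wee1, the kinase that holds back entry into mitosis, differed by 2.31, with 21 of 58 expressing and 2 of 19 silent cells at 5 TPM or more.

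Sf3b1 belongs to the same 12 genes and is a core component of the U2 spliceosome that is recurrently mutated in myelodysplastic syndrome. Its expressing cells had medians of 228.8, 226.3 and 102.8 TPM in prefixes 051716, 051816 and 061016. Silent cells held 0.14, 1.03, 2.60 and 39.4 TPM in the first prefix and 0, 0.31, 7.82, 320.2 and 411.4 TPM in the second, and in Ski-WT they ran from 0 through 9.33 to 625.7 TPM. The silent group was therefore lower by its median but overlapped the expressing range in every prefix. Sf3b1 was at 5 TPM or more in 49 of 58 expressing, 14 of 17 between and 9 of 19 silent cells, and the differences were 5.21, 2.68 and 1.87, with a weighted value of 2.84.

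The remaining 5 genes of the 12 had weighted differences from 2.15 to 2.69. These were Tmem208, an endoplasmic reticulum membrane protein (2.69), Pum2, an RNA-binding repressor of translation (2.67), Ubl7, which has a ubiquitin-like domain (2.50), Elp2, a subunit of the Elongator complex (2.49), and Gnl3l, a nucleolar GTPase (2.15). In each of them both groups had cells at 0. Between 31 and 40 of the 58 expressing cells and between 5 and 7 of the 19 silent cells reached 5 TPM for these 5 genes.

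Nras, the Ras GTPase of growth factor signalling, showed a distinct form of difference on the low side. Its 4 silent cells in prefix 051716 had 79.7, 225.3, 484.7 and 555.3 TPM, and the 5 in prefix 051816 had 254.6, 644.7, 647.7, 1057 and 2469 TPM. In Ski-WT the 10 silent cells ran from 408.6 through a median of 782.6 to 1351 TPM. No silent cell was thus low for Nras. Of the 58 expressing cells, 20 were below 79.7 TPM, the lowest silent value, and 13 of these were under 5 TPM. The expressing medians were 81.5, 479.8 and 347.6 TPM, and their highest values of 1950, 1047 and 1914 TPM lay within or above the silent range. The groups therefore overlapped in the upper range and differed by low cells, which were found in the expressing group and not in the silent one. Of the 17 between cells, 3 were below 79.7 TPM. The mean was 6.72 ± 3.65 (SD, n = 58 cells) in expressing and 9.25 ± 1.05 (SD, n = 19 cells) in silent cells on the log2 scale, the prefix differences were -2.25, -2.35 and -2.47, and the weighted value was -2.39. As a ratio of mean TPM, silent cells were 1.62 times expressing cells, which is a smaller distance than on the log2 scale.

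Golga7, a subunit of the enzyme that palmitoylates Ras proteins, was lower by a weighted value of -2.77, with 20 of 58 expressing and 12 of 19 silent cells at 5 TPM or more. In prefix 051816 its silent cells ran from 4.80 through 137.5 to 506.7 TPM, and the expressing cells from 0 through 0 to 74.1 TPM. Those ranges overlapped from 4.80 to 74.1 TPM, and in the other prefixes both groups had cells at 0. Gnai3, an inhibitory G protein subunit, differed by -2.10, with 19 of 58 and 12 of 19 cells at 5 TPM or more.

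Tgm2, a transglutaminase that crosslinks proteins, was lower in expressing cells in each prefix. Silent cells had 0, 0.48, 154.8 and 185.3 TPM in prefix 051716 and 0, 0, 0, 371.3 and 701.0 TPM in prefix 051816, and in Ski-WT they ran from 0 through 1.95 to 834.7 TPM. Expressing medians were 0.43, 0 and 0 TPM and the highest values were 273.9, 25.9 and 267.3 TPM. Most cells of both groups were thus low, and the difference came from 8 of 19 silent cells against 12 of 58 expressing cells at 5 TPM or more. The weighted difference was -2.48.

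Among the genes of RNA and DNA handling, Syncrip, an RNA-binding protein of the hnRNP family, differed by -2.70 and Apex1, the endonuclease of base excision repair, by -2.54. Syncrip in silent cells was 0.42, 119.0, 260.3 and 280.8 TPM in prefix 051716 and 19, 261.4, 291.7, 393.8 and 480.5 TPM in prefix 051816, with a Ski-WT median of 155.4 TPM. The expressing medians of Syncrip were 6.91, 4.18 and 15.2 TPM, with highest values of 325.8, 589.8 and 767.0 TPM. Silent cells were mostly high for Syncrip, 16 of 19 at 5 TPM or more, against 31 of 58 expressing cells, and the groups overlapped in every prefix. Apex1 reached 5 TPM in 14 of 19 silent and 25 of 58 expressing cells.

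The others of the 12 lowest genes were Thumpd1, which assists tRNA acetylation (-2.75), Plxnc1, a semaphorin receptor (-2.72), Cox19, an assembly factor of cytochrome oxidase (-2.57), Stra13 (-2.19), Cyb5, cytochrome b5 (-2.02), and Cdk2ap1, a partner of Cdk2 (-2). Plxnc1 was at 5 TPM or more in 14 of 19 silent, 18 of 58 expressing and 3 of 17 between cells, and Thumpd1 in 9, 7 and 3 cells in the same order. Each of these 6 genes was at 0 in some cells of both groups. Cox19 was at 0 in 47 of 58 expressing and 10 of 19 silent cells, so it passed the filter only through cells of both groups together.

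Cells of each group differed in how many of these genes they held, which is a description because the genes were selected on this difference. Of the 12 highest genes, an expressing cell had a median of 7 at 5 TPM or more, with a range of 3 to 11. A silent cell had a median of 2, with a range of 1 to 7, and a cell between had a median of 5. Of the 12 lowest genes, the medians were 5, 8 and 5. No single gene therefore separated the groups, and the ranges overlapped for both sets of 12.

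Within the 58 expressing cells, the level of Cd34 was not followed by the genes that differed between the groups. With prefix means taken off the ranks, the Spearman correlation with Cd34 over the 58 cells ran from -0.31 for Ptk2b to 0.11 for Sf3b1 among the 12 highest genes, with a median of -0.01. For Serpinb1a it was -0.13. Among the 12 lowest genes it ran from -0.19 for Stra13 to 0.18 for Syncrip, with a median of -0.03. These are descriptions over cells that share a prefix and a sort. The cells between the groups had a mean nearer to the silent mean for 7 of the 12 highest genes, but nearer to the expressing mean for 11 of the 12 lowest genes.

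**Figure D3:**
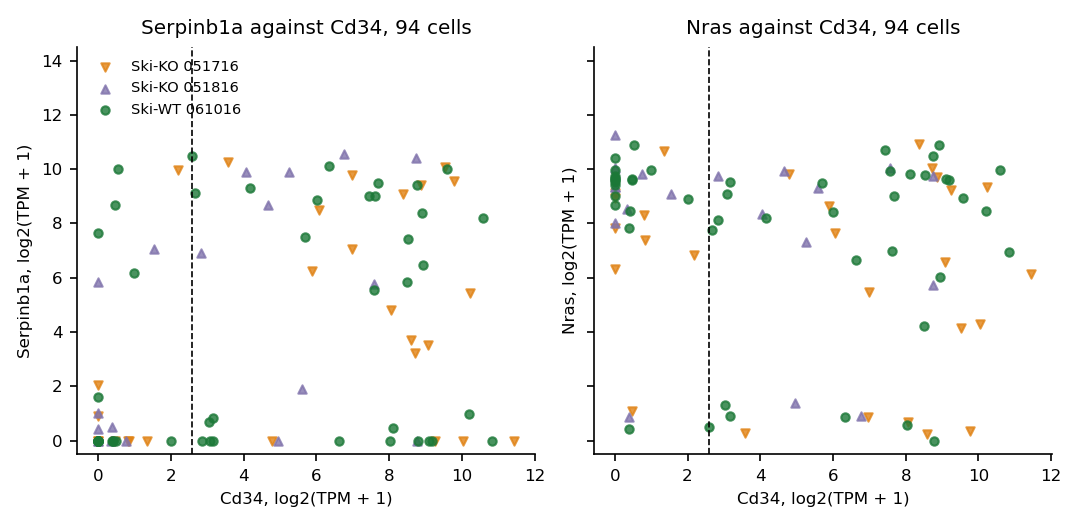
Serpinb1a on the left and Nras on the right are plotted against Cd34 in the 94 cells, all as log2(TPM + 1), with a symbol for each prefix and a dashed line at 5 TPM of Cd34. To the right of the line both genes take high and low values at any Cd34 level, and at Cd34 of 0 all 19 cells are high for Nras.

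Of 15 genes of multipotent progenitors in the table, 4 passed the filter and 0 of them differed by at least 1 in all 3 prefixes. Over all genes tested 1.92% were higher and 1.15% lower by that rule, so a count of 0 in a short list is near the common share. Flt3 and Cd37 passed the filter mainly through the expressing cells, so no median over the 4 is given. Flt3, the cytokine receptor that marks lymphoid-primed multipotent progenitors, was at 0, 0, 0 and 0.23 TPM in the silent cells of prefix 051716 and at 0 in all 5 of prefix 051816. In Ski-WT it was at 0 in 9 of 10 silent cells and at 7.52 TPM in the other. Expressing cells reached 185.5, 1417 and 282.2 TPM. Of the 16 cells with Flt3 at 5 TPM or more, 14 were Cd34-expressing, 1 was between and 1 was silent, and the prefix differences were 2.67, 1.51 and 0.65, with a weighted value of 1.32. By prefix, these were 8 of 18 expressing and 0 of 4 silent cells in 051716, and 2 of 10 and 0 of 5 in 051816. In Ski-WT they were 4 of 30 expressing and 1 of 10 silent cells, which are similar shares. High Flt3 was thus found in a minority of expressing cells, 14 of 58, and the pooled contrast came mostly from prefix 051716.

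Cd37, a tetraspanin of leukocytes, was at 5 TPM or more in 20 of 58 expressing and 2 of 19 silent cells, with a weighted difference of 1.60. Cd53, another leukocyte tetraspanin, gave -0.23 with mixed directions. Il12a, a cytokine subunit, gave a weighted value of 0.67, with 25 of 58 expressing and 6 of 19 silent cells at 5 TPM or more. Under the filter at 25% of cells, Cd52, a small surface glycoprotein of leukocytes, was at 5 TPM or more in 7 expressing and 0 silent cells. Ltb, which encodes lymphotoxin beta, went the other way, in 1 expressing and 3 silent cells, with a weighted value of -0.72. Notch1 gave -0.16. The lymphoid genes Dntt, Il7r and Ccr7 were at 0 in all compared cells.

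The family of Cd34 and its partners held 6 tested genes, none past 1 in all prefixes, with prefix medians of 1.10, -1.56 and 0.09. Emcn, an endothelial and stem cell sialomucin, fell under the filter, but its differences were 1.13, 1.24 and 1.33. It was at 5 TPM or more in 10 of 58 expressing, 1 of 17 between and 0 of 19 silent cells. Selplg, the mucin ligand of selectins, differed by 0.90 in the same direction in all prefixes, and Crk, a signalling adaptor, by -1.35. Podxl, a related sialomucin, was at 5 TPM or more in 3 expressing and 0 silent cells, too few to describe further.

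The genes of the sort gate did not stand at one level in both groups. Kit was at 5 TPM or more in 52 of 58 expressing and 15 of 19 silent cells, and its differences were 2.79, 1.08 and 0.74, with a weighted value of 1.30. Ptprc, which encodes Cd45, was higher by 4.27 and 4.41 in the Ski-KO prefixes but by 0.04 in Ski-WT. Ly6a, which encodes Sca-1, differed by 1.62, 2.79 and -0.20. Slamf1, which encodes the Cd150 of the gate, was at 5 TPM or more in 4 of 58 expressing and 6 of 19 silent cells and was above 0 in 23.4% of compared cells, under the filter. In Ski-WT its silent cells ran from 0 through 0.43 to 925.0 TPM and its expressing cells from 0 through 0 to 65.6 TPM. In prefix 051816 the silent cells held 0, 0, 4.15, 28.8 and 718.3 TPM while the highest expressing cell had 0.24 TPM, but in prefix 051716 all 4 silent cells were at 0 and 2 expressing cells were at 5 TPM or more. Slamf1 thus pointed one way in 2 prefixes (-3.32 and -2.91) and the other way in the third (1.07). Cd48, which the gate excludes, was at 5 TPM or more in no compared cell.

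The long-term stem cell genes as a list had no common direction. Of 16 tested genes, 0 passed 1 in all prefixes, 2 were higher and 1 was lower in all prefixes, and their median was 0.07, the same as over all genes. Mecom, a transcription factor needed for stem cell self-renewal, was higher in all prefixes (0.61, 1.04 and 0.79), and Txnip, a regulator of redox state and glucose uptake, by 3.59, 0.30 and 2. Cd81 was lower in all prefixes, with a weighted value of -0.92. Procr, which encodes the protein C receptor of long-term stem cells, gave -1.21, 2.39 and -0.22, and Mllt3 gave -5.06, 2.67 and -1.27, so neither had a direction. Hlf gave 2.65, -0.05 and -1.16, so its weighted value of -0.02 joins opposite directions. Gpr56 had nearly equal means (0.10) and was at 5 TPM or more in all 77 cells.

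**Figure D4:**
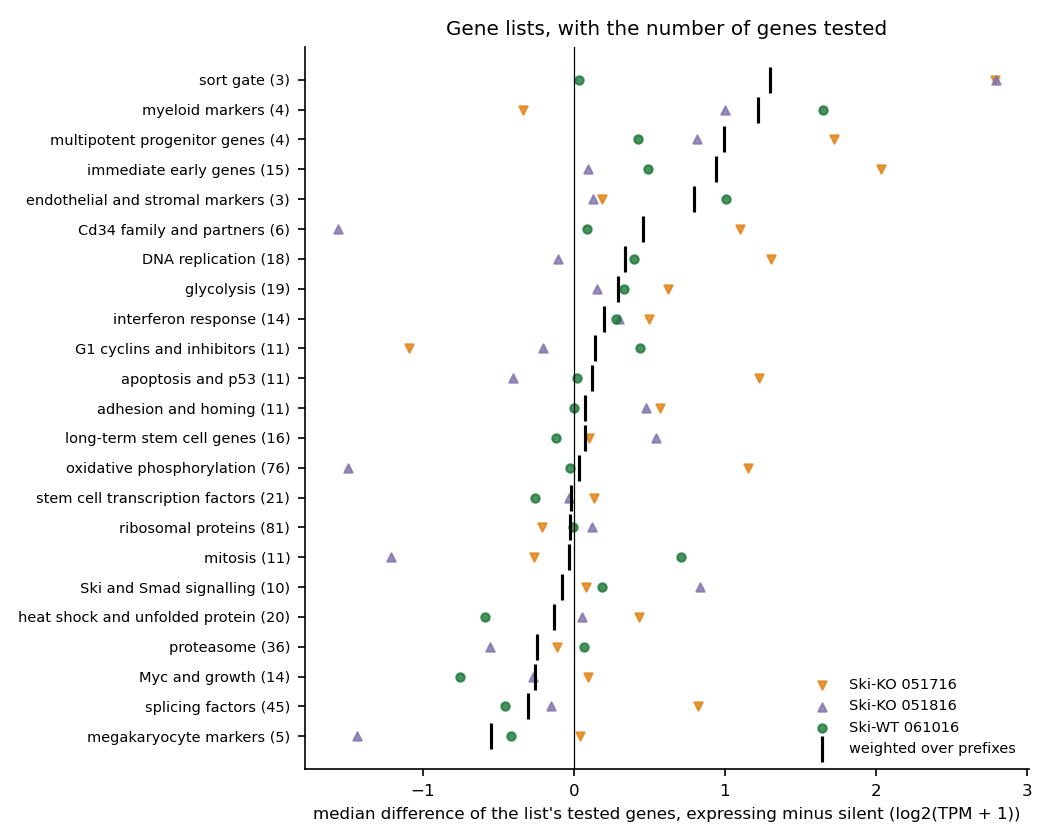
For each gene list, with its number of tested genes in brackets, symbols give the median difference in each prefix and the bar gives the median of the weighted differences, in log2(TPM + 1), expressing minus silent. The prefixes often lie on opposite sides of 0, as for oxidative phosphorylation (1.15 in 051716, -1.50 in 051816 and -0.02 in Ski-WT). The Cd34 family and partners are spread as widely (1.10, -1.56 and 0.09). The immediate early genes lie above 0 in all 3 prefixes (2.04, 0.09 and 0.49). So do other lists, among them glycolysis (0.63, 0.15 and 0.33) and interferon response (0.50, 0.30 and 0.28).

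Immediate early genes, which are transcribed soon after a stimulus, had a median of 0.94 over 15 tested genes, with 12 weighted values above 0, against 54.5% of all genes tested. The prefix medians were 2.04, 0.09 and 0.49, and the largest was in prefix 051716, where expressing cells also had more detected genes and the median over all genes was 0.44. Of the 15, 3 genes were higher by at least 1 in all prefixes, as were 1.92% of all genes. These were Ier2 (2.49), the transcription factor Egr1 (1.79) and Junb (1.52), which was named after its values were seen. Ier2 was at 5 TPM or more in 45 of 58 expressing and 9 of 19 silent cells, with medians of 67.0, 44.1 and 100 TPM in expressing and 0, 8.51 and 4 TPM in silent cells of the 3 prefixes. Egr1 medians were 803.3, 55.6 and 417.4 TPM in expressing and 581.1, 35.1 and 119.6 TPM in silent cells. The difference in Egr1 between prefixes was thus larger than that between Cd34 groups, and both groups held cells under 1 TPM. Jund was the only tested member that was lower in all prefixes, by -0.21.

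Myc, the growth-promoting transcription factor, was higher in expressing cells by 3.05, 2.68 and 1.55, with a weighted value of 2.17. Its silent cells held 0, 0.68, 0.73 and 12.4 TPM in prefix 051716 and 0, 0, 66.8, 155.8 and 923.8 TPM in prefix 051816, and in Ski-WT they ran from 0 through 10.6 to 594.2 TPM. Expressing medians were 10.8, 169.3 and 122.5 TPM, and in prefix 051816 all 10 expressing cells had at least 28.7 TPM. The groups overlapped in each prefix, with 39 of 58 expressing and 9 of 19 silent cells at 5 TPM or more. The list of Myc and growth genes did not move with it, having a median of -0.26 over 14 genes, 1 past 1 in all prefixes (Myc itself) and 4 lower in all prefixes. Among those, the translation initiation factors Eif4a1 and Eif4e differed by -0.84 and -1.35.

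Energy genes had few members past 1, to be read beside 1.92% higher and 1.15% lower over all genes tested. In glycolysis, 2 of 19 tested genes passed 1 in all prefixes, Pgam1 (2.43) and Pgk1 (1.57), which encode adjoining steps of the lower pathway, and the list's median was 0.29. Pgam1 was at 5 TPM or more in 34 of 58 expressing and 4 of 19 silent cells. In oxidative phosphorylation, 3 of 76 were higher past 1, namely Ndufv1 (1.92) and Ndufa11 (1.66) of complex I and Sdhd (1.49) of complex II, which was named after its values were seen. The ATP synthase subunit Atp5f1 (-1.44) was the 1 lower gene. The list's weighted median of 0.03 joins prefix medians of 1.15, -1.50 and -0.02, so the Ski-KO prefixes lay on opposite sides of 0.

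Ribosomal protein genes had 0 of 81 members past 1 in either direction and a median of -0.03. Over all genes tested, 1.92% were higher and 1.15% lower past 1 in all prefixes. The proteasome list had 2 of 36 higher past 1, Psmb10 of the immunoproteasome (2.30) and Psmd1 of the regulatory particle (1.74), and 1 lower, the ATPase Psmc5 (-2.04), with a median of -0.25. Of 45 splicing factors, Sf3b1 alone passed 1, and the list's median was -0.31, with prefix medians of 0.82, -0.15 and -0.46. Weighted values were below 0 for 30 of the 45, against 45.5% of all genes tested. Srsf1 (-1.19) and Srsf11 (-1.25), which are SR proteins, were lower in all prefixes. Herpud1, a component of the degradation machinery of the endoplasmic reticulum, was lower by a weighted value of -3.61, with prefix differences of -1.56, -5.84 and -3.51. It was at 5 TPM or more in 14 of 19 silent and 21 of 58 expressing cells, while the heat shock and unfolded protein list had a median of -0.13 over 20 genes.

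The cell cycle lists had prefixes in opposite directions. Their counts past 1 stand beside the same shares over all genes tested, 1.92% higher and 1.15% lower. Of 18 DNA replication genes, Rfc3 of the clamp loader (1.54) passed 1 in all prefixes, and the flap nuclease Fen1 (1.37) was higher in all of them, with a list median of 0.34 and prefix medians of 1.30, -0.10 and 0.40. None of 11 mitosis genes passed 1 in all prefixes. Their weighted median of -0.03 joins prefix medians of -0.27 in 051716, -1.21 in 051816 and 0.71 in Ski-WT, and Mki67 gave -0.41. Among 11 G1 cyclins and inhibitors, with prefix medians of -1.09, -0.21 and 0.44, the repressor E2f4 was lower (-2.05) past 1 in all prefixes. Cdkn1b, the Cdk inhibitor p27, was lower in all prefixes with -2.01, -2.37 and -0.05. Among 21 stem cell transcription factors, with a median of -0.02, Lyl1 was higher in all prefixes (weighted 1.93) and Nfe2, an erythroid and megakaryocytic factor, was lower (-1.69). Interferon response (14 genes, median 0.20), apoptosis and p53 (11 genes, 0.12) and adhesion and homing genes (11 genes, 0.07) had 0 members past 1 in all prefixes.

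Ski and Smad signalling genes had a median of -0.08 over 10 tested, 0 of them past 1. Ski itself was at 5 TPM or more in 4 of 58 expressing, 5 of 17 between and 0 of 19 silent cells. Of the 5 between cells, 1 in prefix 051716 had 227.9 TPM and 1 in prefix 051816 had 162.1 TPM, both labelled Ski-KO. Smad4, the common partner of the receptor-regulated Smads, was above 0 in 19.5% of compared cells and so under the filter. It was at 5 TPM or more in 7 of 19 silent and 6 of 58 expressing cells, with differences of -2.85, -1.81 and -1.45. It was picked out after its values were seen.

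Markers of other cell types were summed in each cell, and the medians of these sums pool the prefixes. The summed level of 23 myeloid markers had a median of 573.1 TPM (0 to 2796) in expressing and 312.0 TPM (0.42 to 4518) in silent cells, with Mpo, Elane, Ctsg, Cebpa and Csf1r at 0 in all of them. Csf3r, the receptor for granulocyte colony-stimulating factor, was at 5 TPM or more in 18 of 58 expressing and 1 of 19 silent cells, with a weighted difference of 1.48. Lyz2, the lysozyme of myeloid cells, gave -2.89, 1.11 and 3.49, with mean levels of 376.7 TPM in expressing and 540.6 TPM in silent cells. The 12 lymphocyte markers summed to a median of 328.3 TPM (0 to 4114) in expressing and 1.19 TPM (0 to 2329) in silent cells. Nkg7, a granule membrane protein, had the highest mean of them (486.5 and 330.1 TPM) and reached 5 TPM in 29 of 58 and 5 of 19 cells. Lck, a kinase of T cell signalling, was at 5 TPM or more in 10 of 58 and 0 of 19 cells, while Vpreb1, Igll1, Cd4, Gzma and Klrb1c were at 0. Cd79b did not share this pattern by count, being at 5 TPM or more in 12 of 58 expressing and 5 of 19 silent cells. Its mean was nevertheless 116.6 TPM in expressing and 32.1 TPM in silent cells. The differences in Nkg7 were 5.83, 1.19 and 0.19.

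For 16 megakaryocyte markers the medians were 826.9 TPM (0.61 to 4782) in expressing and 1061 TPM (155.1 to 9136) in silent cells, and Pf4 gave 2.08, -2.69 and -2.06. The 14 erythroid markers had medians of 3288 TPM (87.5 to 9844) and 2829 TPM (779.2 to 8003), with Alas2, Hbb-b1 and Rhd among those at 0 throughout. Endothelial and stromal markers, whose cells the Cd45.2+ gate would remove, summed to medians of 33.6 TPM (0.12 to 1868) and 7.50 TPM (1 to 1016), with Flt1 at 0. Macrophage markers, with 5 of 8 at 0 in all compared cells, had medians of 0 in both groups and reached 1046 TPM in expressing and 200.3 TPM in silent cells, and mast cell markers reached at most 12.1 TPM in an expressing cell. The part of these markers in the differences between the Cd34 groups was not tested.

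**Figure D5:**
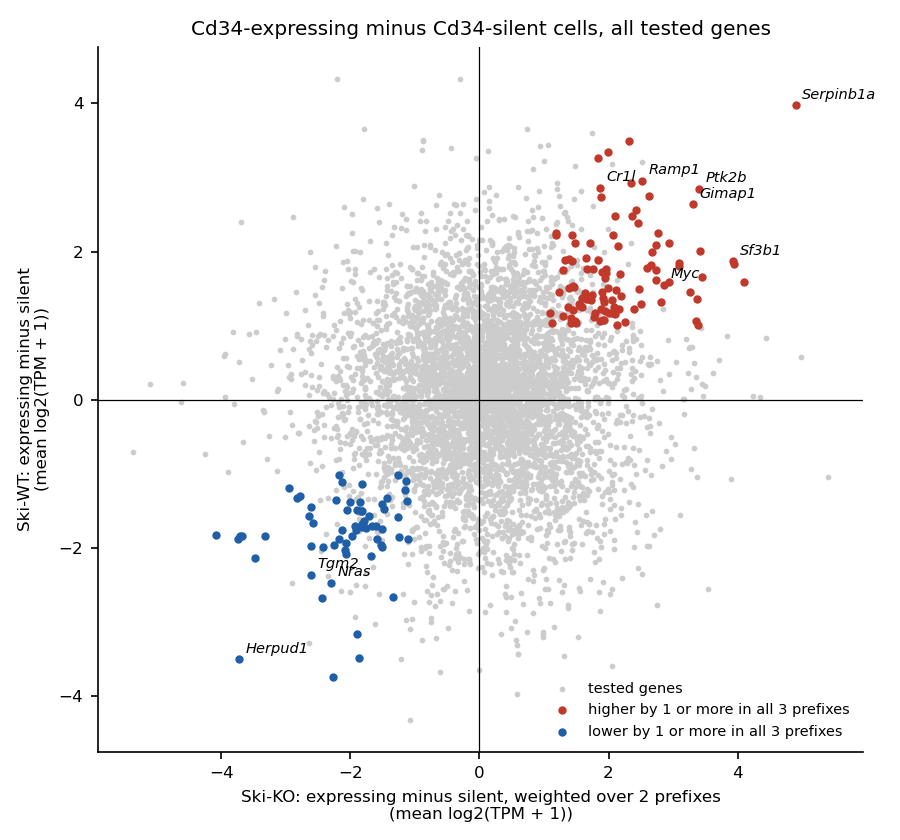
Each point is 1 of 5467 tested genes, with the weighted difference over the 2 Ski-KO prefixes on the horizontal axis and the Ski-WT difference on the vertical axis, both expressing minus silent in log2(TPM + 1). The 105 genes higher by at least 1 in all 3 prefixes lie at the upper right, with Serpinb1a farthest out, and the 63 lower genes lie at the lower left.

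Ski-KO and Ski-WT cells thus gave the same direction for each of the 24 genes named as highest or lowest, which the rule for naming them required. The size of the differences in the 2 Ski-KO prefixes and in Ski-WT lay within 1 of each other for Serpinb1a, Ptk2b, Tmem208, Nbr1, Elp2, Wee1, Plac8, Gnl3l, Nras, Cox19, Tgm2, Gnai3, Cyb5 and Cdk2ap1. For Sf3b1, Pum2, Thumpd1 and Stra13 prefix 051716 was farther from the others, and for Golga7, Gimap1 and Ubl7 prefix 051816 was. Apex1 (-3.53 and -3.12), Syncrip (-2.83 and -4.51) and Plxnc1 (-3.06 and -4.35) were larger in size in both Ski-KO prefixes than in Ski-WT. Their Ski-WT differences were -1.85, -1.84 and -1.84. The difference between genotypes was not tested, and in each genotype it rests on the same few silent cells, 9 in Ski-KO and 10 in Ski-WT.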

How the data were processed

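Single cells were captured on the Fluidigm C1 system, with SMARTer cDNA synthesis, Nextera XT libraries and paired-end sequencing, per the labels' protocols. The submitters' processing notes name Bowtie2, RSEM and the mouse build mm9, with neither versions nor roles. The deposited table gives log2(TPM + 1), as read from the values: back-transformed TPM sum to between 997625 and 999995 per cell, in steps of 0.01, for 13244 genes. Such values keep no read depth and hold no molecular identifiers. No cell was removed and no doublet caller was run.

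The members, the 30 gene lists and the rule for named genes were chosen with earlier results of these data known. A gene was called where the difference was at least 1 in all 3 prefixes. Prefix weights were 23.2%, 23.6% and 53.2%, for 051716, 051816 and 061016. Named genes were the 12 highest and the 12 lowest by the smallest prefix difference, outside sex-linked genes, and up to 2 per list and direction. All members of the lists for Cd34 partners, sort gate, long-term stem cells and multipotent progenitors could also be named. Of the 13244 genes, 990 have a row identical to another, 0 of them among the 24. Where genes share sequence with close relatives, the authors' counting could split reads between them. Intervals on shares are exact Clopper-Pearson at 95%. Alternatives changed the Cd34 limits, pseudocount (0.1 or 10 TPM), filter (10%, 50% or none), low values, scaling, covariate, prefix weights and measure, and left out each prefix. The code was tested on simulated data. Tables were handled with pandas 2.3.3 and numpy 2.4.6, intervals and ranks came from scipy 1.17.1, and figures from matplotlib 3.10.9, all under Python 3.11.15. Some list members are not reported here.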

Additional observations from a re-analysis of the deposited data

Results flagged for a closer look

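For 11 of 449 list members, cells with Cd34 at 5 TPM or more differed from cells with Cd34 at 0 in one direction in both Ski-KO prefixes and in the other direction in Ski-WT, by at least 1 in each. Over all 5467 genes tested, 127 did so. The difference between genotypes was not tested, and genotype and prefix cannot be told apart. Values are expressing minus silent in log2(TPM + 1), first in Ski-WT and then in prefixes 051716 and 051816.

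Lower in the expressing cells of Ski-WT and higher in those of Ski-KO were the survival gene Bcl2 (-2.54, then 1.23 and 1.85), the mitochondrial chaperonin Hspe1 (-1.79, then 3.17 and 1.73), the nucleolar gene Nolc1 (-1.41, then 2.39 and 2.53), the interferon-induced Ifi35 (-1.30, then 1.52 and 2.28) and the replicative helicase subunit Mcm7 (-1.20, then 2.62 and 1.37). The phosphatase Dusp1 (-1.08, then 3.48 and 4.32) and the transcription factor Fli1 (-1, then 3.21 and 1.65) had the same order. Higher in Ski-WT and lower in Ski-KO were the proteasome subunit Psma6 (2.47, then -2.77 and -3.03), the ATP synthase subunit Atp5e (2.07, then -2.60 and -1.86), the complex I subunit Ndufa7 (1.79, then -1.87 and -3.21) and the mitotic kinesin Kif11 (1.17, then -1.32 and -2.87).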

How the results depend on the processing

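Main counts were 105 genes higher and 63 lower. They became 53 and 32 with the between cells joined to the silent group (24 and 13 genes shared), 203 and 123 at a pseudocount of 0.1 TPM, 19 and 21 at 10 TPM, and the higher count became 60 with a filter at 50%. Taking detected genes as a covariate moved the higher share of calls from 62.5% to 49.7%, a pseudocount of 10 TPM to 47.5%. With Cd34 at 50 TPM or more, 105 genes were again higher, of which 52 were shared. Serpinb1a had the highest smallest prefix difference in each of the 12 settings that changed cells, scale, pseudocount, filter, low values or covariate. Through those that change a gene's value, Serpinb1a, Ptk2b, Gimap1, Tmem208, Nbr1, Nras, Cox19, Golga7 and Thumpd1 stayed past 1 in all prefixes. With the between cells joined, 8 of the 12 highest and 5 of the 12 lowest stayed past 1 in all prefixes, and Stra13 and Cdk2ap1 lost their common direction. With Cd34 at 50 TPM or more, 9 and 10 stayed, Plac8 and Cyb5 lost their common direction and Wee1 had a smallest difference of 0.072. Of the 384 alternative weighted values of these 24 genes, 0 reversed and 85 moved. Equal prefix weights and leaving out a prefix could not have reversed any, since naming required all prefixes to agree in direction. The same holds for the 55 list genes that follow. Among 880 values of 55 list genes, 9 reversed: as a log2 ratio of mean TPM, Mecom (-0.21), Il12a (-0.12), Jund (0.16), Pdia6 (-0.084) and Calr (0.063); with the between cells joined to the silent group, Hoxa10 (0.0051), Pdia3 (-0.092) and Pdia6 (-0.17); and Cd47 as a share of cells at 5 TPM or more (-3.65 percentage points). Apart from the settings' own construction, the cause was not tested. No paired analysis was possible because cell numbers in the labels only name cells. TPM values keep no depth, a value of 0 may be a transcript that was missed, and silent groups of 4, 5 and 10 cells limit every difference.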

Other observations

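Calcrl, its partner Ramp1, Gimap5 and Cd93 stood among the 105 higher genes and were noticed after the values were seen. Calcrl, the receptor for adrenomedullin and related peptides, was at 5 TPM or more in 30 of 58 expressing and 5 of 19 silent cells, with differences of 2.82, 2.66 and 1.62 in prefixes 051716, 051816 and 061016. Ramp1, the partner that gives Calcrl its specificity for calcitonin gene-related peptide, was at 5 TPM or more in 37 of 58 and 7 of 19 cells, with differences of 1.62, 3.41 and 2.96. In the 17 between cells, Calcrl reached 5 TPM in 6 and Ramp1 in 14. The mean log2 level of Ramp1 was 6.20 in between, 4.61 in expressing and 2.04 in silent cells, so it did not rise with Cd34. Ramp2, the partner for adrenomedullin, was at 0 in all compared cells. Gimap5 differed by 1.29, 2.62 and 1.76, beside Gimap1, while Gimap6 gave a weighted value of 0.08 and Gimap9 one of -0.95, so members of the Gimap family went in different directions. Cd93, a C-type lectin of progenitors and endothelium, was at 5 TPM or more in 40 of 58 and 8 of 19 cells, with a weighted difference of 2.41.

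Of the 13 protein-coding genes up to 10 places from Cd34 on either side, read as gene order only from the RefSeq table of GRCm38.p6, which is not the build of the deposited values, 10 are listed in the deposited table and 3 were tested. Cr1l, a complement regulator 2 places from Cd34, was the 1 among them higher by at least 1 in all prefixes, with 1.25, 2.46 and 2.86. It was at 5 TPM or more in 29 of 58 expressing, 6 of 17 between and 2 of 19 silent cells. Cd46, between Cr1l and Cd34 in that order, was at 5 TPM or more in 1 expressing cell, and Plxna2, on the other side, was at 0 in all compared cells.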
